A study of Rattus with 6 samples.

Results

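Integrins and the proteins of focal adhesions were examined in cultured vascular smooth muscle cells given either a control siRNA or an siRNA against CDCP1, a transmembrane protein phosphorylated by Src family kinases. The members are 39 genes chosen by name, namely 19 integrin subunits (12 alpha, 7 beta) and 20 genes of the adhesion plaque. Each of the 39 matched exactly 1 protein-coding row of the deposited table of 54012 genes. The cells are labelled as primary aortic smooth muscle cultures of the rat, and all 6 received Ang II, that is angiotensin II, the hormone peptide known for raising vessel tone and smooth muscle growth. The 3 si-NC cultures carry a wild-type genotype label and the control siRNA. The 3 si-CDCP1 cultures carry a CDCP1 knockdown label. No culture without Ang II was analysed here, and the labels give neither the dose and duration of Ang II nor the age of the animals. Nor do they state that each replicate is a culture of its own origin. The spread behind every p-value is that of these libraries and may be technical.

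An integrin is a receptor made of an alpha and a beta subunit that binds extracellular matrix outside the cell and the actin cytoskeleton inside it. Talin and kindlin bind the beta tail and switch the receptor on, filamin and alpha-actinin tie the plaque to actin, and the complex of ILK, PINCH and parvin carries signals and force from the beta tail. Zyxin, VASP and related LIM domain proteins gather on actin at tensed adhesions, and the p130Cas and Crk adaptors pass on tyrosine kinase signals. Smooth muscle cells use these receptors to hold the matrix of the vessel wall.

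Reads counted in genes numbered 16050517 to 19771638 per library, recovered as whole numbers from the deposited FPKM (fragments per kilobase, scaled by a total for each library). Although the samples are labelled rat, the table lists mouse genes on the mouse build mm10. A low value can thus not be read as absence of the transcript. Of Cdcp1 itself, the control siRNA cultures held 2, 2 and 1 reads and the knockdown cultures 0, 5 and 0, too few to check the labels. Of 8 smooth muscle markers, Acta2 and Smtn had a mean of at least 1 FPKM, and the defining markers Myh11, Tagln and Cnn1 did not exceed 0.216 FPKM in any library. The table thus lists these 3 markers of the labelled cell type near 0, while Acta2 was between 34.4 and 64.2 FPKM. In bulk RNA, fewer cells of a type and less RNA per cell cannot be told apart. The library si-CDCP1 replicate 3 stood apart, being the highest of the 6 for 34.0% and the lowest for 30.0% of the 12080 genes averaging 1 FPKM or more. The log2 differences it moved most among those printed are also given without it.

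Of the 19 integrin subunits, 9 reached a mean of 1 FPKM over the 6 libraries, and 4 of these made up nearly all of the signal: Itgb5, Itga5, Itga3 and Itgav. FPKM is a level per gene length, the scale on which subunits are set side by side here. How well the reads of each gene matched the mouse sequence was not tested, so the order and the shares below are those of the table. Itga5 encodes the alpha subunit of the classical fibronectin receptor and Itgav that of the receptors for vitronectin and other RGD-bearing ligands. Itga3 encodes the alpha subunit of a laminin receptor, and Itgb5 a beta subunit that pairs with alpha v. Differences between the groups were tested only for genes at or above that limit.

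Itga5 (ENSMUSG00000000555, mm10 chromosome 15, 103344286 to 103366763, minus strand) was the highest alpha subunit. Its level was 46.4, 47.0 and 47.5 FPKM in si-NC replicates 1, 2 and 3, and 44.8, 44.8 and 43.4 FPKM in the si-CDCP1 replicates in the same order, which is kept below. All 3 si-CDCP1 values lay under all 3 si-NC values. Itga3 (mm10 chromosome 11, 95044474 to 95076801, minus strand) stood at 32.8, 33.8 and 30.9 FPKM in si-NC against 30.5, 28.1 and 23.9 FPKM in si-CDCP1. The groups again did not overlap, and the lowest value was that of si-CDCP1 replicate 3. Itgav (mm10 chromosome 2, 83724397 to 83806916, plus strand) stood at 22.3, 22.3 and 22.2 FPKM against 22.5, 23.0 and 25.2 FPKM. Here every si-CDCP1 library was above every si-NC library, by a margin that was small except in replicate 3. As shares of the summed FPKM of all alpha subunits listed in the table under the names searched, Itga5 took 43.4%, Itga3 28.5% and Itgav 21.9% (means over 6 libraries).

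The other alpha subunits were low. Itga7, a laminin receptor subunit known from muscle, stood at 3.04, 3.10 and 2.47 FPKM in si-NC against 2.53, 2.52 and 1.89 FPKM in si-CDCP1, and these ranges overlapped. Itga6, which also forms laminin receptors, lay between 1.66 and 1.91 FPKM over the 6 libraries with no separation of the groups. Itga1, a collagen receptor subunit, had 0.661 ± 0.0933 FPKM in si-NC against 0.590 ± 0.0641 FPKM in si-CDCP1 (SD, n = 3 libraries), below the limit for testing although 1209 reads supported it. The gene Pelo, at 5.11 FPKM, lies inside the span of Itga1 on the same strand, so reads shared between them could not be told apart. Itga10 and Itga11, further collagen receptor subunits, had means over 6 libraries of 0.170 and 0.154 FPKM on 90 and 81 reads.

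Itga2, Itga4, Itga8 and Itga9 were close to undetected, with 32, 35, 9 and 4 reads in all 6 libraries together. Itga8 and Itga9 encode subunits described in smooth muscle, and Itga4 one best known from leukocytes. For Itga9 all 4 reads were in si-NC replicate 1, and a floor of 3 reads in 1 library corresponded to between 0.0194 and 0.0250 FPKM. Floors from reads cover counting error only. No difference between the groups was detectable for these subunits at this depth.

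Itgb5 (mm10 chromosome 16, 33829665 to 33949153, plus strand) was the highest of all 19 subunits. It stood at 53.1, 53.1 and 52.4 FPKM in si-NC against 51.4, 50.3 and 47.7 FPKM in si-CDCP1, so that the groups did not overlap. Of the summed FPKM of the 7 beta subunits among the members, Itgb5 held between 88.4% and 92.4% in every library. The 7 do not include Itgb1, the common beta subunit that pairs with many alpha chains, which was taken from a list of other integrin subunits. Itgb1 stood at 201, 197 and 213 FPKM in si-NC against 210.0, 212 and 255 FPKM in si-CDCP1, with overlapping groups. With Itgb1 included, Itgb5 was 19.0% and Itgb1 79.0% of the beta sum.

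Itgb2, Itgb7 and Itgb3 followed at between 0.956 and 2.43 FPKM in single libraries. Itgb2, the beta subunit of leukocyte integrins, stood at 1.78, 1.55 and 1.52 FPKM in si-NC against 2.04, 2.43 and 1.41 FPKM in si-CDCP1, so that replicate 3 went below all other libraries while the other si-CDCP1 replicates were above them. Itgb7, a beta subunit of lymphocyte homing receptors, stood at 1.67, 1.48 and 2.02 FPKM against 1.90, 2.17 and 1.11 FPKM. It rested on 497 reads and Itgb2 on 565. The leukocyte alpha subunits were low. Itgal did not exceed 0.0187 FPKM, Itgax 0.0241, Itgad 0.171 and Itgae 0.295 FPKM, and Itgam was listed at 0 in every library. Of 6 leukocyte markers, Adgre1 and Cd3e were at 0 in all libraries, Ptprc did not exceed 0.0153 FPKM, and the summed level of the 6 was between 1.30 and 1.35 FPKM in si-NC and between 0.727 and 0.891 FPKM in si-CDCP1, nearly all of it Cd68. Itgb3, which pairs with alpha v and, in platelets, with alpha IIb, stood at 1.45, 1.52 and 1.45 FPKM against 1.23, 1.53 and 0.956 FPKM, with overlapping groups. Itga2b, which encodes alpha IIb, had a mean over 6 libraries of 0.882 FPKM on 500 reads. Itgb8, an alpha v partner, and Itgb4, the hemidesmosome subunit of epithelia, had means over 6 libraries of 0.217 and 0.170 FPKM, and Itgb6 had 5 reads in all.

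**Figure D1:**
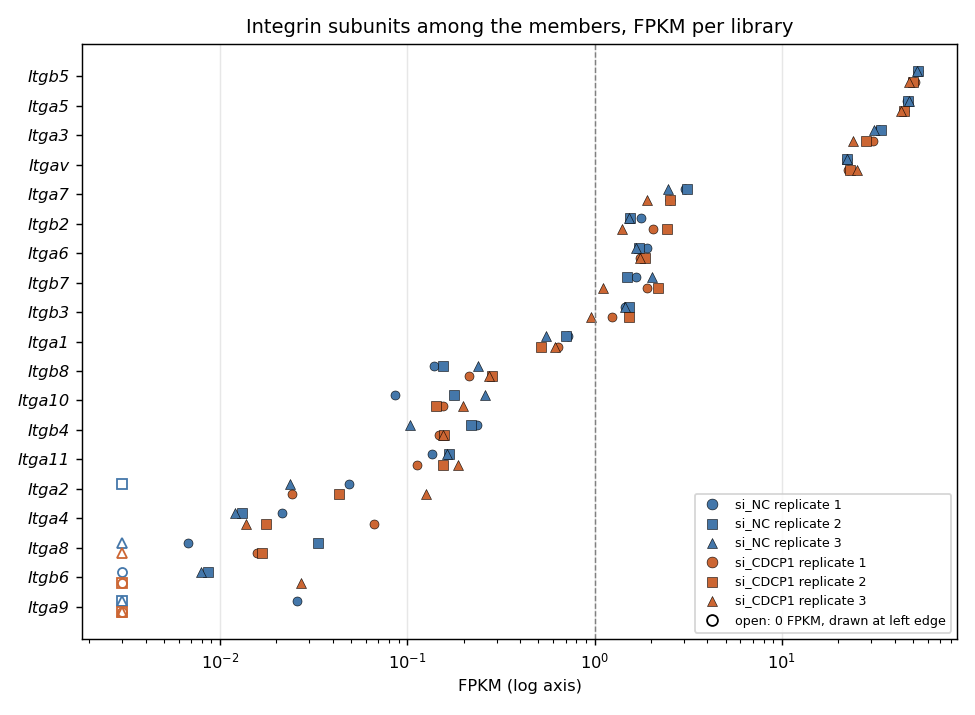
FPKM of the 19 integrin subunits in each library on a log axis, si-NC blue and si-CDCP1 orange, with the marker shape giving the replicate, the dashed line at 1 FPKM and values of 0 drawn as open markers at the left edge. Itgb5, Itga5, Itga3 and Itgav lie between 22.2 and 53.1 FPKM in every library, and 10 subunits have means under 1 FPKM.

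In the order of mean levels, Itgb5 was above Itga5 and Itga5 above Itga3 in every library. Itga3 and Itgav overlapped over the 6 libraries. Itgav was separated from Itga7 by a wide gap, from a lowest value of 22.2 FPKM to a highest of 3.10 FPKM. The range of Itga7 overlapped with that of Itgb2, but within every library Itga7 was above Itgb2, Itga6, Itgb7 and Itgb3. Itgb2, Itga6 and Itgb7 each overlapped with the next in order, so that the order of such neighbours was not resolved. Itgb2 and Itga6 were above Itgb3, and Itgb3 above Itga1, in every library. From Itgb8 down to Itga9 each subunit overlapped with the next.

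Among the activators and actin linkers, Flna, Tln1, Actn4 and Actn1 were the most abundant. Flna, the actin cross-linker filamin A and the highest of the 39 members, stood at 127, 133 and 128 FPKM in si-NC against 129, 125 and 133 FPKM in si-CDCP1, with the groups interleaved. Tln1, which encodes talin 1, stood at 63.1, 65.9 and 62.9 FPKM against 59.2, 57.0 and 63.1 FPKM. Its first 2 si-CDCP1 replicates lay under every si-NC library and replicate 3 among them. Actn4, an alpha-actinin, had 48.5 ± 0.998 FPKM in si-NC against 44.6 ± 4.29 FPKM in si-CDCP1, and its paralog Actn1 35.8 ± 0.586 and 35.8 ± 2.53 FPKM (SD, n = 3 libraries each). In si-CDCP1 replicate 3 the paralogs went apart, with Actn4 at its lowest value of the 6 libraries (39.7 FPKM) and Actn1 at its highest (38.7 FPKM).

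The remaining linkers were lower. Tns3 and Tns1 encode tensins, which bind beta tails and actin in mature adhesions. Tns3 lay between 22.4 and 23.8 FPKM in all libraries. Tns1 stood at 10.9, 12.02 and 11.0 FPKM in si-NC against 10.9, 10.5 and 10.4 FPKM in si-CDCP1. The si-CDCP1 values were all lower, but replicate 1 of both groups rounded to the same 10.9 FPKM. Fermt2, which encodes kindlin 2, had 21.0 ± 1.87 and 21.6 ± 0.792 FPKM. Tln2, the second talin, had 2.33 ± 0.241 FPKM in si-NC against 2.01 ± 0.177 FPKM in si-CDCP1 without overlap of the groups.

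The ILK-PINCH-parvin complex held the member with the smallest p-value. Parva, which encodes the actin-binding alpha-parvin (ENSMUSG00000030770, mm10 chromosome 7, 112427505 to 112591692, plus strand), stood at 19.1, 18.5 and 19.2 FPKM in si-NC against 16.9, 16.9 and 16.8 FPKM in si-CDCP1. The groups were separated, and the 3 si-CDCP1 libraries lay closer together than the si-NC libraries. The ratio of the group means, si-CDCP1 over si-NC, was 0.891. Lims1, which encodes PINCH1, stood at 41.1, 40.5 and 44.4 FPKM against 41.6, 40.8 and 42.5 FPKM, with no separation. Ilk, the pseudokinase at the centre of the complex, was listed at only 0.506 ± 0.211 FPKM in si-NC against 0.534 ± 0.156 FPKM in si-CDCP1 (SD, n = 3 libraries each), on 146 reads in all.

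The Ilk value is uncertain because of its neighbours. In the deposited table Ilk (mm10 chromosome 7, 105736592 to 105742925, plus strand) spans 6334 bases, of which 3533 overlap the span of Taf10 and 794 that of Rrp8, both on the minus strand. Taf10 had 9.93 ± 0.543 FPKM in si-NC against 11.6 ± 0.558 FPKM in si-CDCP1, and Rrp8 8.80 ± 0.423 and 9.96 ± 0.815 FPKM (SD, n = 3 libraries each). Whether reads of Ilk were left out of its count or given to these genes was not tested. The sources used here give neither the strand setting nor the treatment of shared reads. Overlaps with a gene on the other strand above 1 FPKM also exist for Tln1 (Creb3, 360 bases), Itga7 (Mettl7b, 9 bases) and Vasp (1700058P15Rik, 1248 bases), and Crkl overlaps a small nuclear RNA gene, Gm22770, by 67 bases, and Itga9 the processed pseudogene Gm10157 by 343 bases.

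Zyx was the highest of the zyxin, VASP and LIM domain genes and had the largest positive difference outside the integrins. It stood at 59.2, 60.2 and 56.9 FPKM in si-NC against 64.2, 58.7 and 69.9 FPKM in si-CDCP1, where replicate 2 lay within the si-NC range. Pdlim5, a PDZ and LIM domain protein of actin fibres, had 43.9 ± 0.526 and 45.7 ± 2.42 FPKM, and Vasp, which promotes actin filament growth, 30.1 ± 2.78 and 29.9 ± 1.09 FPKM (SD, n = 3 libraries each). Lpp, a zyxin relative abundant in smooth muscle, had 12.1 ± 0.504 and 11.4 ± 0.937 FPKM. Pdlim7 had 9.89 ± 0.262 and 9.08 ± 1.17 FPKM, and Tgfb1i1, the paxillin relative Hic-5, 4.89 ± 0.193 and 4.48 ± 0.295 FPKM. Of these 6 genes, only Pdlim5 had groups that did not overlap.

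Among the adaptors Crk was the highest, at 47.8, 49.5 and 50.6 FPKM in si-NC against 49.1, 50.01 and 57.9 FPKM in si-CDCP1. Its highest value was again that of si-CDCP1 replicate 3. Crkl, its paralog, had 26.0 ± 1.24 and 25.8 ± 0.801 FPKM (SD, n = 3 libraries each). Bcar1, which encodes the scaffold p130Cas, stood at 33.2, 39.0 and 33.6 FPKM against 32.8, 32.4 and 32.5 FPKM. The separation from si-NC was narrow except for si-NC replicate 2.

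**Figure D2:**
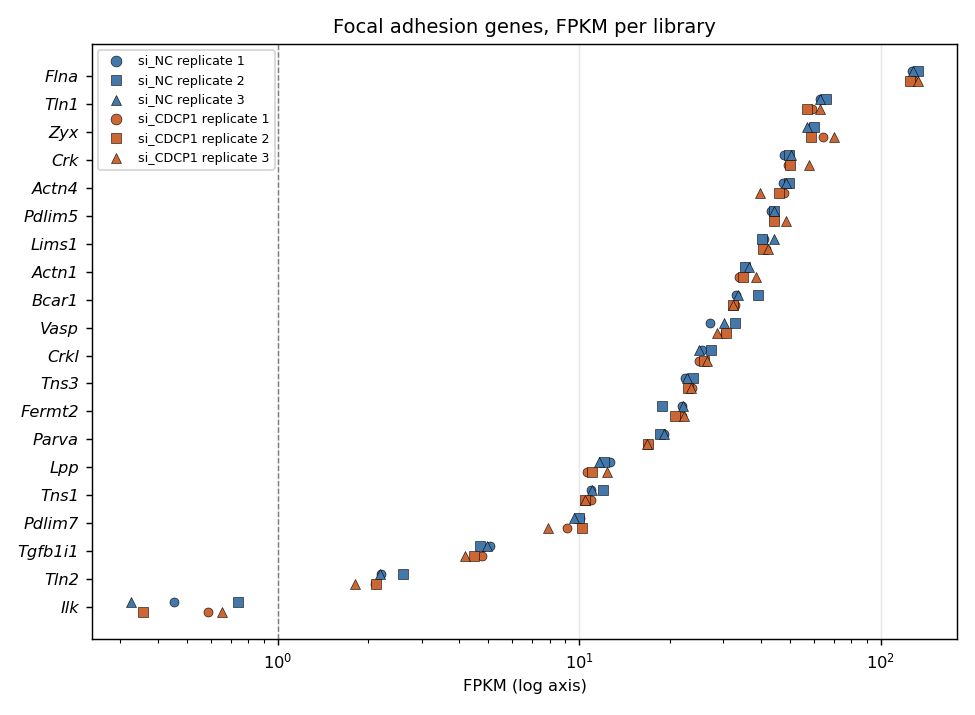
FPKM of the 20 focal adhesion genes in each library on a log axis, with colours and markers for group and replicate as in the legend and a dashed line at 1 FPKM. Flna lies between 125 and 133 FPKM, Ilk is the only one of the 20 with a mean under 1 FPKM, and for most genes the 2 groups lie on top of each other.

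No member passed the test between si-CDCP1 and si-NC. The 28 members with a mean of at least 1 FPKM (9 integrin subunits and 19 adhesion genes) were tested on log2(FPKM + 1) with limma, a moderated test, in a fit over all 12080 genes at that level. At a Benjamini-Hochberg adjusted p under 0.05, 0 of the 28 members were called, as were 0% of all genes tested. The largest difference in size was that of Itga3, at -0.24, and the 95% intervals of 26 of the 28 members included 0. Log2 differences on this scale understate the change of low genes. The other 11 members are given above as values.

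At an unadjusted p under 0.05, 0 members were higher and 2 were lower in si-CDCP1, Parva and Itga3. Over all genes tested 8.94% were higher and 5.31% lower by that rule, so the share of the members was near the background on the lower side. Parva, the member with the smallest p-value, had a log2 difference of -0.16 (SE 0.045, 95% interval -0.26 to -0.05, unadjusted p = 0.00967, adjusted p = 0.279 in limma), lower in 3 of 3 si-CDCP1 libraries. Itga3 had -0.24 (SE 0.090, 95% interval -0.45 to -0.03, unadjusted p = 0.0319, adjusted p = 0.323 in limma), which went to -0.15 without si-CDCP1 replicate 3. Over 21 settings of the processing, the unadjusted p of Parva was under 0.05 in 21, from 0.00107 to 0.0434, and that of Itga3 in 18. These settings refit the same libraries, and Parva was singled out by its p-value. How many of all genes stayed under that limit throughout was not counted. The next members on the lower side were Itga7, with a log2 difference of -0.22 (95% interval -0.50 to 0.05), and Itga5, with -0.08 (-0.18 to 0.02). On the higher side Zyx had 0.12 (-0.04 to 0.29), Itgav 0.07 (-0.06 to 0.20), Itgb2 0.17 (-0.17 to 0.50) and Crk 0.08 (-0.09 to 0.25). Without si-CDCP1 replicate 3 the values of Zyx, Itgav and Crk went to 0.06, 0.03 and 0.01, and that of Itgb2 to 0.31. That of Itga7 went to -0.13.

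**Figure D3:**
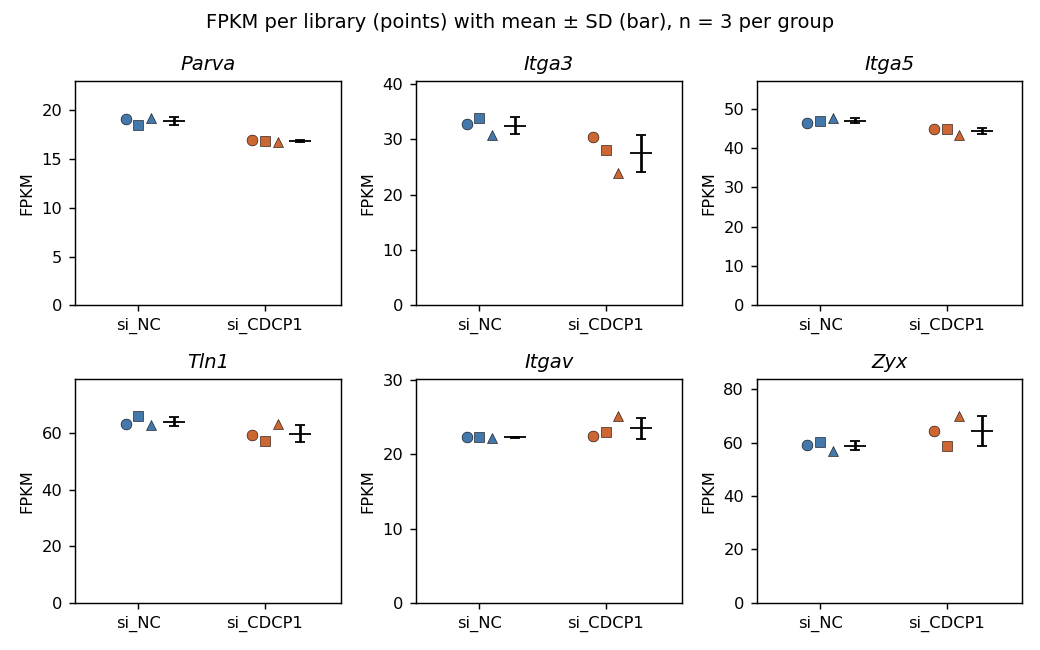
FPKM of Parva, Itga3, Itga5, Tln1, Itgav and Zyx in each library (points, the shape giving the replicate) with the mean and SD of the 3 libraries of each group beside them, each axis starting at 0. Parva, Itga3 and Itga5 are lower in all si-CDCP1 libraries, Tln1 and Zyx overlap between the groups, and Itgav is higher in all si-CDCP1 libraries by a small margin.

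Parva and Tln1 were the only members called in any setting. Their calls depended on the model and the weights as well as on si-CDCP1 replicate 3. In limma voom on the recovered reads without that library, both fell, with log2 differences of -0.16 for Parva (adjusted p = 0.0424) and -0.14 for Tln1 (adjusted p = 0.0373). In this fit 1.06% of 14267 genes were called lower. With library weights on all 6 libraries, limma again called both lower (adjusted p = 0.0322 and 0.0401), where 2.54% of 12080 genes were called lower. The weights, estimated from the same data, were 0.165 for si-CDCP1 replicate 3, 0.600 for replicate 1 and 5.11 for replicate 2, against 1.08 to 1.37 for si-NC, so that the weighted si-CDCP1 values rested mainly on 1 library. In the fit on log2(FPKM + 1) without si-CDCP1 replicate 3, 0 members were called, with adjusted p = 0.155 for Parva and 0.180 for Tln1. Over all 21 settings the adjusted p ranged from 0.0322 to 0.643 for Parva and from 0.0373 to 0.727 for Tln1.

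By direction, 19 of the 28 members tested had negative and 9 positive differences, with a median of -0.05. Of all 12080 genes 5766 had negative and 6314 positive differences, with a median of 0.01. With FPKM sums made equal between libraries, 23 of 28 members and 7450 of 12084 genes were negative, and with quantile normalisation 21 of 28 members and 6147 of 12080 genes. The groups did not overlap for 2 members with higher values (Itgav and Pdlim5) and 7 with lower values (Itga3, Itga5, Itgb5, Tln2, Tns1, Parva and Bcar1). Over all genes tested 14.4% were separated with higher and 10.6% with lower values in si-CDCP1. By role, the median log2 difference was -0.08 for the 5 alpha subunits tested, -0.05 for the 4 beta subunits, -0.04 for the 8 activators and linkers, -0.08 for Lims1 and Parva, -0.04 for the 6 zyxin, VASP and LIM domain genes and -0.01 for the 3 adaptors. Without si-CDCP1 replicate 3 the median of the beta subunits turned to 0.05. In the order above, the other medians were then -0.07, -0.05, -0.09, -0.01 and -0.03, and that of all 28 members was -0.04. Members and counts of this kind describe the list and were not tested as a set.

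**Figure D4:**
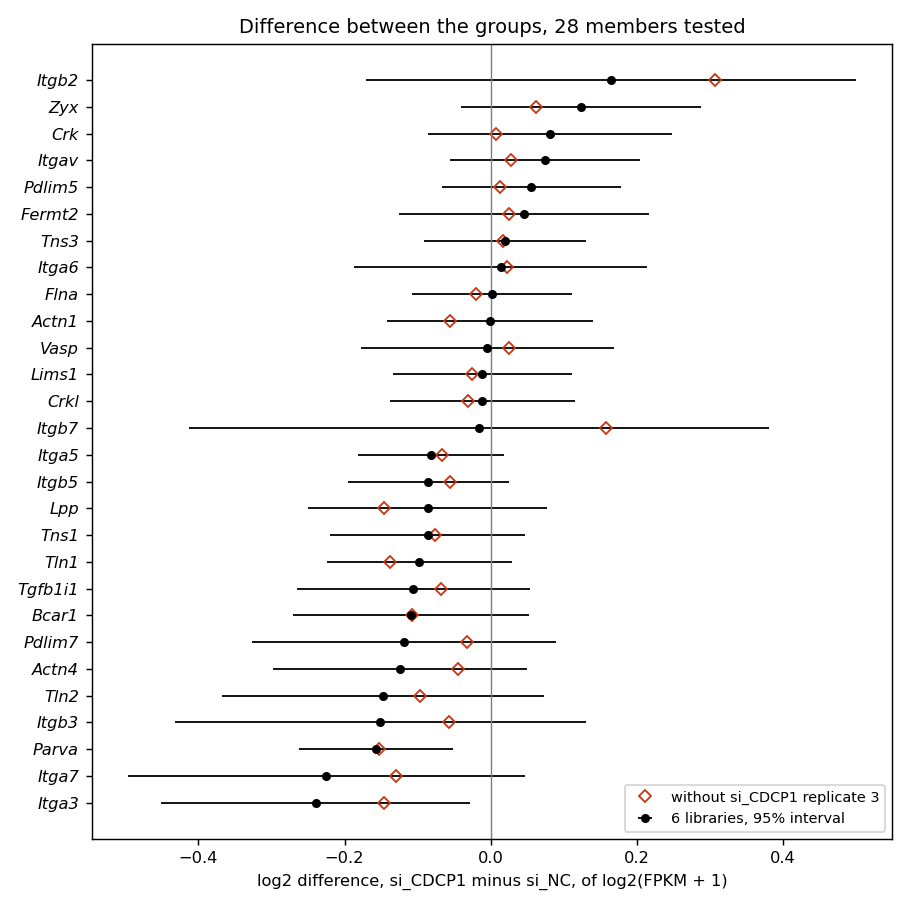
Log2 differences, si-CDCP1 minus si-NC, of log2(FPKM + 1) for the 28 members tested, as points with 95% intervals from all 6 libraries and as open diamonds without si-CDCP1 replicate 3. The intervals of Itga3 and Parva lie below 0, and the other 26 include 0. The diamonds of Itga3, Itga7, Itgb2, Itgb3, Itgb7 and Pdlim7 are among those far from their points, while that of Parva is not.

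The library si-CDCP1 replicate 3 was the lowest of the 6 for 13 of the 28 members (46.4%, against 30.0% of all genes) and the highest for 7 (25.0%, against 34.0%). The members that were low in it included Itga3, Itga7, Itgb3, Itgb7, Actn4 and Pdlim7, and those that were high in it included Itgav, Zyx, Crk, Actn1 and Pdlim5. Among the si-NC libraries, replicate 2 was the highest of the 6 for 10 of the 28 members (35.7%, against 15.7% of all genes), among them Tln1, Tln2, Tns1, Bcar1, Vasp and Actn4. The members tested were long, with a median length of 5647.5 bases against 3980.5 for all genes tested. Deviations from the mean over libraries had a rank correlation with gene length of -0.31 in si-CDCP1 replicate 1 and between -0.04 and 0.09 in the other libraries, a description over 12080 genes that share a library. With this trend removed Parva had a log2 difference of -0.15 and Itga3 one of -0.24.

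**Figure D5:**
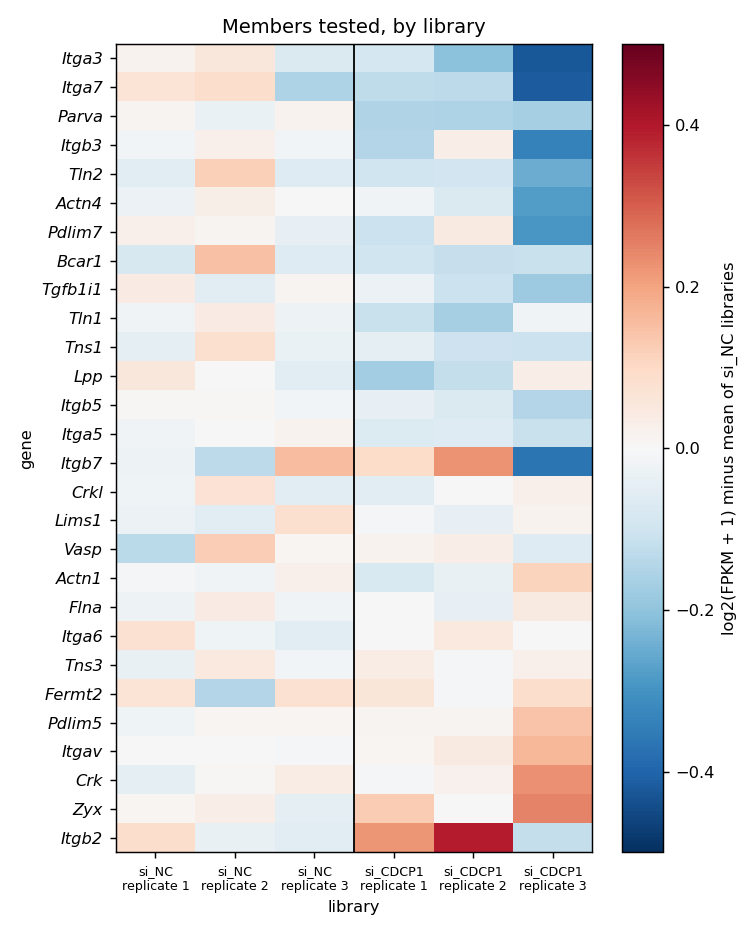
Log2(FPKM + 1) of the 28 members tested in each library, less the mean of the 3 si-NC libraries for that gene, ordered by the group difference, with red for higher and blue for lower values. Parva is evenly lower in the 3 si-CDCP1 libraries, whereas the strongest colours for Itga3, Itga7, Itgb3 and Itgb7 are in si-CDCP1 replicate 3.

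Ratios of related members within a library do not depend on the scaling between libraries. The ratio of Itga5 to Itgav was 2.08, 2.10 and 2.14 in si-NC against 1.99, 1.95 and 1.73 in si-CDCP1, lower in all 3 si-CDCP1 libraries. The ratio of Tns3 to Tns1 was 2.05, 1.98 and 2.06 against 2.17, 2.19 and 2.24, higher in all 3. Each gave p = 0.1 in an exact two-sided permutation test, the smallest value that 3 libraries against 3 allow, and an adjusted p = 0.3 over the 6 ratios compared. Tln1 exceeded Tln2 by 27.6-fold ± 2.01 in si-NC and 30.04-fold ± 4.38 in si-CDCP1 (SD, n = 3 libraries each), with overlapping groups. The ratios of Actn1 to Actn4 (0.739 ± 0.0209 and 0.814 ± 0.142), Itgb3 to Itgb5 (0.0279 ± 0.000652 and 0.0248 ± 0.00523) and Crk to Crkl (1.90 ± 0.110 and 2.03 ± 0.138) overlapped between the groups as well.

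In the fit on log2(FPKM + 1) over all 6 libraries, other genes of the adhesion pathway gave no call either at an adjusted p under 0.05 in limma. Over all genes tested, 8.94% were higher and 5.31% lower at an unadjusted p under 0.05. Of 28 further scaffolds, 22 were tested, with 1 higher and 2 lower by that rule. These were Limd1, a zyxin family protein, with a log2 difference of 0.20, Tns2, a tensin, with -0.17, and Vcl, which encodes vinculin, with -0.18. Without si-CDCP1 replicate 3 these were 0.13, -0.15 and -0.12. Of 24 adhesion kinases and GTPase regulators all were tested and 1, the Src family kinase gene Fyn, was higher by that rule (0.23, and 0.14 without si-CDCP1 replicate 3). Git2, a scaffold that binds paxillin, had -0.13, and Rock1, a kinase that raises actomyosin tension, 0.19 (0.10 without that library), neither under that limit. Of 27 integrin ligands 21 were tested, and 2 were lower by that rule, both with groups that did not overlap. Over all genes tested, 10.6% had groups separated with lower values in si-CDCP1. Thbs1, which encodes the matrix protein thrombospondin 1, had 40.8 ± 3.71 FPKM in si-NC against 30.2 ± 1.48 FPKM in si-CDCP1 (SD, n = 3 libraries each), a log2 difference of -0.42 (adjusted p = 0.238 in limma). Lamb2, a laminin chain, had 40.6 ± 1.79 and 35.2 ± 0.681 FPKM, a log2 difference of -0.20 (adjusted p = 0.267 in limma). Vcam1, a ligand of alpha 4 integrins, had 0.18, and 0.11 without si-CDCP1 replicate 3. The median log2 difference was 0.00 for the scaffolds, 0.04 for the kinases and regulators and 0.04 for the ligands, beside 0.01 for all genes tested. Without si-CDCP1 replicate 3 all 3 medians were negative, at -0.01 for each list, while that of all genes tested was 0.01. Of 8 rows for other integrin subunits, Itgb1 was the only one tested, with a log2 difference of 0.14 (adjusted p = 0.446 in limma) that went to 0.05 without si-CDCP1 replicate 3.

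Calls among these other genes also depended on the model and the weights as well as on si-CDCP1 replicate 3. In the fit on log2(FPKM + 1) without that library none was called. The adjusted p in limma was then 0.102 for Thbs1, 0.152 for Lamb2, 0.322 for Vcl and 0.231 for Fyn. In limma voom on the recovered reads without that library, Thbs1 and Lamb2 fell, with log2 differences of -0.42 (adjusted p = 0.000818) and -0.19 (adjusted p = 0.0210). In that fit 1.06% of 14267 genes were called lower. With library weights limma again called both lower, at -0.46 for Thbs1 (adjusted p = 0.0186) and -0.20 for Lamb2 (adjusted p = 0.0285). By those weights 2.54% of 12080 genes were called lower. Library weights also gave Vcl as lower, at -0.17 (adjusted p = 0.0497), and Fyn as higher, at 0.18 (adjusted p = 0.0465), where 4.62% of all genes tested were called higher. In voom without that library Vcl and Fyn were not called (adjusted p = 0.189 and 0.127).

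Markers of other cell types were read as summed FPKM in each library. The 8 smooth muscle markers summed to between 46.6 and 51.1 FPKM in si-NC and between 45.0 and 75.8 FPKM in si-CDCP1. Most of this sum came from Acta2, at 42.0, 34.4 and 64.2 FPKM in the si-CDCP1 replicates. Of the 8, Mylk alone had groups that did not overlap. Its mean was 0.806 FPKM with the control siRNA and 0.488 FPKM with the CDCP1 siRNA, below the limit for testing. Groups were separated with lower values for 10.6% of all genes tested. The remaining markers overlapped, with lower si-CDCP1 means for Des, Lmod1 and Tagln and higher ones for Acta2, Smtn, Myh11 and Cnn1. The 6 fibroblast markers, 3 of them at a mean of at least 1 FPKM and nearly all of the sum from Col1a1, came to between 277 and 310 FPKM in si-NC and between 275 and 310 FPKM in si-CDCP1. Of the 3, Col1a1 and Dcn overlapped between the groups. Pdgfra was lower without overlap, with means of 10.4 and 8.69 FPKM and a log2 difference of -0.24 (adjusted p = 0.316 in limma). Without si-CDCP1 replicate 3 its difference was -0.15. With library weights its adjusted p in limma was 0.0497, where 2.54% of all genes tested were called lower. The 6 endothelial markers, none at a mean of 1 FPKM and Cdh5 at 0 in all libraries, came to between 0.729 and 0.972 FPKM in si-NC and between 1.00 and 1.05 FPKM in si-CDCP1. The 5 platelet and megakaryocyte markers came to between 1.22 and 2.16 FPKM against 1.21 and 1.58 FPKM, and the 6 epithelial markers did not exceed 0.218 FPKM. The smooth muscle sums overlapped between the groups, while the leukocyte sums were lower and the endothelial sums higher in si-CDCP1. What part these marker levels had in the values of the members was not tested.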

How the data were processed

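RNA-seq of 6 cultures, 3 si-NC and 3 si-CDCP1, was analysed from 1 table. Its values are FPKM per gene and library, as deposited by the authors and per the file headers. The build mm10 is named in the submitters' processing notes. The aligner, the counter and the strandedness were not given in the sources used here. FPKM times gene length was a whole multiple of 1 step in each library (49.8 to 64.1), and division by that step gave whole reads (tolerance 0.01), from which depth was read. The scaling total implied by the step matched a size factor, the median ratio over genes with reads in all libraries. Reads counted in genes were between 98.4% and 104.0% of that total, so the FPKM were not scaled to the reads counted. Groups were taken from the labels.

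Genes averaging 1 FPKM or more were tested on log2(FPKM + 1) with limma 3.58.1 in R 4.3.3, with an intensity trend and Benjamini-Hochberg adjustment over all genes tested, at 0.05. Ratios were compared by exact permutation (scipy 1.17.1). The limma step was tested on simulated data. The members and gene lists were chosen with earlier results of these data known. Every member is described. Values per library are given for the highest alpha and beta subunits, the 4 smallest p-values in each direction and the highest gene of each other role group. In other lists up to 3 genes with the smallest p-values are named. Further genes shown library by library, and the overlapping neighbours, were chosen after their values were seen. Alternatives changed the pseudocount, filter, scaling, length trend, weights, model and libraries used. Same-numbered replicates of the 2 groups did not deviate together (correlations -0.02, 0.03 and 0.02), so the numbers were not treated as pairs.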

Additional observations from a re-analysis of the deposited data

How the results depend on the processing

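No member was called at an adjusted p under 0.05 except under 2 alternatives, library weights and limma voom without si-CDCP1 replicate 3. These each called Parva and Tln1 lower, 2 of 28 members tested with weights and 2 of 34 in voom. Of the other pathway genes the same alternatives called 4 (Thbs1, Lamb2, Vcl and Fyn) and 2 (Thbs1 and Lamb2). Over all genes, library weights called 558 higher and 307 lower of 12080. In voom without si-CDCP1 replicate 3, 342 were called higher and 151 lower of 14267. At an unadjusted p under 0.05, 0 of 28 members were higher and 2 lower, beside 1080 and 642 of 12080 genes. Higher counts came to 1 with library weights (1953 of 12080 genes). They were also 1 with the length trend removed and si-CDCP1 replicate 3 left out (1051 of 12107 genes). In voom without that library, 1 of 34 members was higher (1429 of 14267 genes). Lower counts came to 5 with equal FPKM sums (1301 of 12084 genes), 6 with quantile normalisation (798 of 12080) and 6 with library weights (1558 of 12080). They were 4 with the length trend removed and si-CDCP1 replicate 3 left out (828 of 12107 genes). In voom without that library they were 4 of 34 (1011 of 14267 genes). Leaving out 1 library at a time gave 0 to 1 higher and 1 to 4 lower, the 4 being Parva, Tln1, Itga3 and Lpp without si-CDCP1 replicate 3. Over all genes these fits gave 600 to 1298 higher and 313 to 850 lower. With a replicate block 0 members were called and 3 were lower at an unadjusted p under 0.05 (564 of 12080 genes). The cause of these shifts was not tested. The number of integrin subunits counted as expressed was 9 at 1 FPKM, 4 at 5 FPKM and 14 at 10 reads in 3 libraries.

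Of the 28 members tested, 16 kept the sign of their difference under all 20 alternatives and 12 did not. The median of the members was negative in 21 of 21 settings, which reuse the same libraries. It ranged from -0.10 with equal FPKM sums, beside -0.04 for all genes, to -0.01 with no filter, beside -0.003 for all genes. With 3 libraries a group, exact tests cannot go below p = 0.1. Subunits with under 40 reads in all had too few reads to resolve a difference, and the cause of their low counts was not tested.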
